A study of Mus musculus with 4 samples.

Results

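The genes of the cytosolic ribosome were examined in RNA-seq libraries of undifferentiated mouse embryonic stem cells (ESCs). Members were taken by symbol alone: the numbered Rpl and Rps genes, the stalk genes Rplp0, Rplp1 and Rplp2, and Rpsa. The rule found 84 of the 19645 features in the files, where a feature is a gene or a merged set of overlapping genes. They comprise 46 core large subunit genes, 31 core small subunit genes and 7 paralogs, which are second genes similar in sequence to a core gene. Bmal1 (Arntl) encodes a clock transcription factor, and the study compared ESCs lacking it with wild-type ESCs. The WT group holds 2 libraries of unedited ESCs and the Bmal1 KO group holds 2 libraries of ESCs edited with CRISPR-Cas9, all from total RNA depleted of rRNA. Per the study's methods, ESCs were grown on gelatin in medium with serum and LIF, which keeps ESCs undifferentiated. The KO cells are 1 selected line, so that genotype and line cannot be told apart. The study's methods call the replicates biological, but nothing states whether those of a group were separate cultures, and p-values therefore measure only the spread between these libraries.

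A ribosome consists of a small subunit, which decodes the mRNA, and a large subunit, which forms the peptide bond, each built from rRNA and one copy of most of its proteins. Ribosomal protein mRNAs are among the most abundant in dividing cells, and many begin with a C followed by a run of pyrimidines, the terminal oligopyrimidine (TOP) motif through which growth signals set their translation. Some ribosomal proteins have paralogs with restricted expression, several of which are best known from testis or striated muscle. BMAL1, with its partner CLOCK, binds the E-box sequence CACGTG.

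The start of several members is shown here because the C-plus-pyrimidine run is the best known feature of ribosomal protein mRNAs, although not all members held it. Each line gives 30 bases, from 10 before the RefSeq start to base 20 after it (GRCm38.p6), and capitals mark a run of at least 5 C or T that begins with C within 5 bases of the start. The first 5 are core members picked because they hold the run, and the last 3, shown whether or not they hold it, are the members whose level passed the test below. The windows lie at chr3:90213629-90213658 (minus strand), chr7:141447641-141447670 (plus), chr4:86857348-86857377 (minus), chr11:114668570-114668599 (plus), chr10:128626487-128626516 (minus), chr3:28805498-28805527 (plus), chr16:10170218-10170247 (plus) and chr12:66284382-66284411 (minus), in the order printed.
Rps27: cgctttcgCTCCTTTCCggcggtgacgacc
Rplp2: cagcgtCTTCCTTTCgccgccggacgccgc
Rps6: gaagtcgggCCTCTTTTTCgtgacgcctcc
Rpl38: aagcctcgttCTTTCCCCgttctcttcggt
Rps26: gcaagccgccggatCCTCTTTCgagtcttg
Rpl22l1: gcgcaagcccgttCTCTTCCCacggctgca
Rpl39l: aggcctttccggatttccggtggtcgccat
Rpl10l: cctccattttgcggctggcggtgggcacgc
Of the 84 members, 63 had a RefSeq promoter in the table used, and 29 of these (46.0%) held such a run, against 21.2% of all 27025 genes with a promoter. Rpl22l1 was among them, whereas the letters were not found at the annotated start of Rpl39l or Rpl10l, nor at that of the abundant core gene Rpl41.

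Values are FPKM, fragments scaled to transcript length and to the mapped reads of the library, and no read counts were given, so that the depth behind each value is unknown. Of the summed FPKM, features without a gene symbol took 26.8% and 37.3% in WT and 19.0% and 18.1% in KO. The 6 ESC markers sum to 2662 to 3029 FPKM and both KO libraries were below both WT libraries, at 2860.0 and 2662 against 3029 and 2906. Pou5f1 made up most of this sum and its groups overlapped, while Esrrb was higher in both KO libraries (202.0 and 179.8 against 174.9 and 147.2 FPKM). Nanog, Sox2, Zfp42 and Klf4 were lower in both KO libraries, with log2 fold changes of -0.18, -0.26, -0.21 and -0.46. The Sox2 feature is 57.2 times as long as the annotated gene, so that its level is uncertain. Of all features tested below, 31.7% were lower and 27.0% higher in both KO libraries. Among the ESC markers, Klf4 passed the test used below, at 41.3 and 40.9 FPKM in KO against 58.4 and 55.0 FPKM in WT (adjusted p of 0.0178 by limma). The 4 fibroblast markers found of 5 sum to 1.67 to 2.93 FPKM and the 5 endoderm markers to 0.539 to 1.36 FPKM, both sums higher in the KO libraries, with Dcn listed at 0 in 3 libraries. Most of the fibroblast sum was Thy1, at 1.69 and 1.54 against 2.73 and 2.11 FPKM, and the groups overlapped for Col1a1 and for the endoderm markers Gata6 and Sox17. The other endoderm markers were higher in both KO libraries. Sox7 was at 0.260 and 0.247 FPKM in WT against 0.709 and 0.627 FPKM in KO. Dab2 was at 0.0993 and 0.136 against 0.327 and 0.343 FPKM, and Foxa2 at 0.0462 and 0.0461 against 0.0785 and 0.206 FPKM. Their means were below the filter used below, so that they were not tested. The part of these differences in the results below was not tested. The level of Arntl was 6.05 and 6.29 FPKM in WT against 5.95 and 5.92 FPKM in KO. A level summed over the whole gene does not show a small deletion, so that it is no check of the genotype.

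Core ribosomal protein genes were among the most abundant mRNAs in every library. The median core level was 2631 and 2644 FPKM in WT against 2522 and 2436 FPKM in KO. Both KO libraries were below both WT libraries on this scale. Rps27, a small subunit protein with a zinc finger, was the most abundant member, at 12861 and 13280.0 FPKM in WT and 12072 and 9916 FPKM in KO. Rpl38, a large subunit protein best known for its part in the translation of Hox mRNAs, followed with 9779 and 10457 against 8750.4 and 8521 FPKM. The Rpl38 feature is 109 times as long as the annotated gene, so that its level is uncertain. Rpl41, which encodes the shortest ribosomal protein, was listed at 9297 and 8999 against 8629 and 8076 FPKM, in a feature merged with Zc3h10. In each of these 3 genes both KO libraries lay below both WT libraries as deposited. The same was true of 75% of all members and 31.7% of all tested features. After the quantile normalization described below, the order was reversed in these 3 genes, again without overlap of the groups. Such a higher KO level was then found in 40.5% of all members and 27.9% of all tested features.

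At the other end, Rps15a, a small subunit protein named for its level after it was seen, had the lowest core level, with 133.6 and 124.0 FPKM in WT and 120.3 and 120.7 FPKM in KO. Rpl22, an RNA-binding large subunit protein, was next with 278.8 and 270.3 against 281.1 and 263.6 FPKM, and the groups overlapped. Its feature is merged with Chd5. The core proteins are present in the ribosome in like amounts, yet their FPKM spanned from a mean of 124.7 for Rps15a to 12030.0 for Rps27. Across the 77 core genes, which share libraries and length scaling, Spearman's rho between coding length and mean FPKM was -0.498. Ribosomal protein genes have many processed pseudogenes, and how reads matching several loci were divided is not given in the sources used here, so that single levels are uncertain. In addition, 20 members lie in a feature over 3 times as long as the annotated gene. The 7 paralogs ranged from a mean of 1.45 FPKM for Rpl3l to 1034 FPKM for Rps27l.

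**Figure D1:**
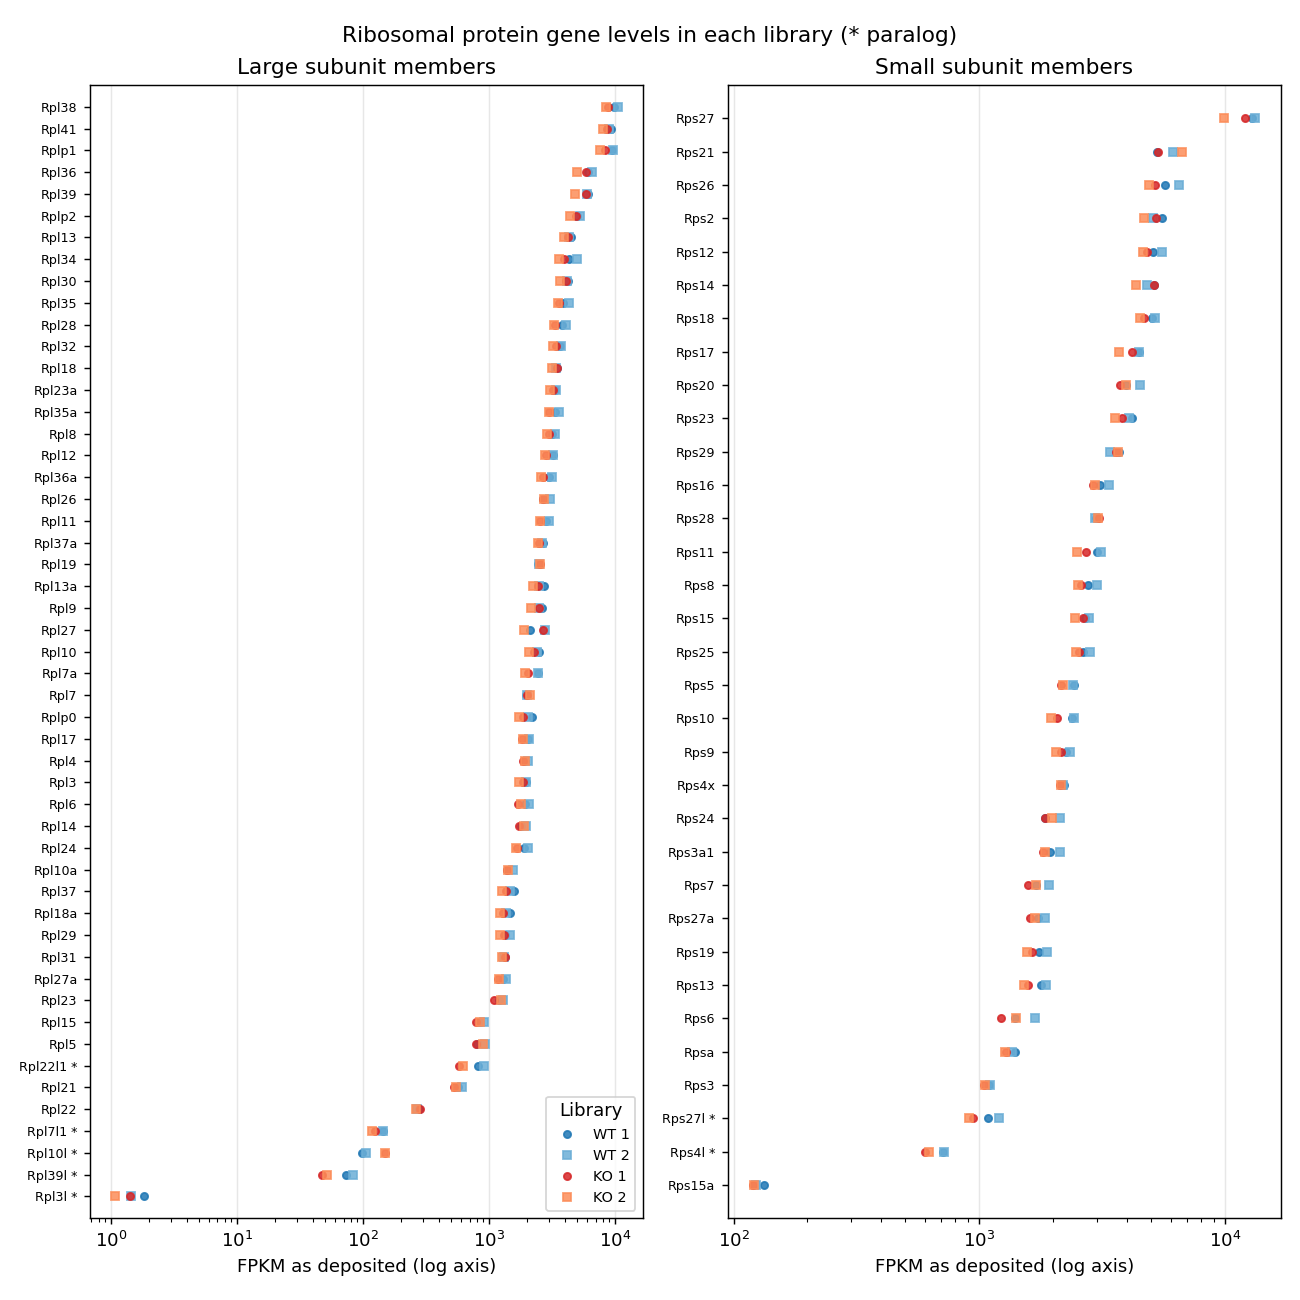
FPKM as deposited (log axis) of each member in the 4 libraries, by subunit and ordered by mean level; blue stands for WT, red and orange for KO, circles for replicate 1 and squares for replicate 2, and an asterisk marks a paralog. The 4 points of most core genes lie close together, and Rpl10l, Rpl39l and Rpl22l1 show the widest gaps between the groups.

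The comparison of the 2 KO with the 2 WT libraries asked whether ribosomal protein mRNAs changed in the line lacking Bmal1. All 84 members passed the filter of a mean of at least 0.5 FPKM. On the deposited scale 78 members had a negative and 6 a positive log2 fold change, with a median of -0.15, against -0.023 over all 12990 features tested. The fold changes of the 77 core genes were narrowly spread, with a median of -0.14 (a KO to WT ratio of 0.905), an SD over genes of 0.082 and a range from -0.30 to 0.074. Only 1 member passed as higher at an adjusted p under 0.05 (limma with Benjamini-Hochberg adjustment over all features tested), where 6.85% of all features did, and 2 passed as lower, where 5.60% did. All 3 are paralogs, and no core gene passed, the lowest adjusted p by limma among them being 0.079 for Rpl7a. The Rpl7a feature is merged with Surf2 and is 11.1 times as long as the annotated gene. No member passed with more than a 2-fold change, as 4.14% of all features did. At an unadjusted p under 0.05, limma counted 9 core genes (11.7%), against 29.6% of all features. In bulk RNA, fewer cells of a type and less RNA per cell cannot be told apart.

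The direction of the core genes depended on the scale. Both KO libraries were below both WT libraries for 63 members (75%) with deposited FPKM, against 31.7% of all tested features, and above them for 3 members, against 27.0%. After quantile normalization, which gives every library the same distribution of values so that a gene is placed by its rank, both KO libraries were above both WT libraries for 34 members (40.5%), against 27.9% of all tested features, and below them for 11, against 30.1%. The median log2 fold change of the members was then 0.070, with 65 positive and 19 negative. All members share the 4 libraries and 1 scale per library, so that these counts do not stand for independent observations. After quantile normalization again 1 member passed as higher (6.68% of all features did) and 2 as lower (5.37%), and they were the same 3 genes.

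The difference between the scales can be followed in the ranks. Among all features, the median rank from the top of the core genes was 72 and 75 in WT against 63 and 64 in KO. Among features with a gene symbol it was 49 and 49 in WT and 48 and 49 in KO. Features without a symbol that exceeded the median core level numbered 23 and 26 in WT and 15 and 15 in KO. With FPKM rescaled to the sum over features with a symbol, the median of the members was -0.077, with 17 positive and 67 negative, while the median over all features was 0.049. With quantile normalization over features with a symbol only, a setting chosen after seeing the data, the median of the members was -0.053, against -0.017 over all tested.

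**Figure D2:**
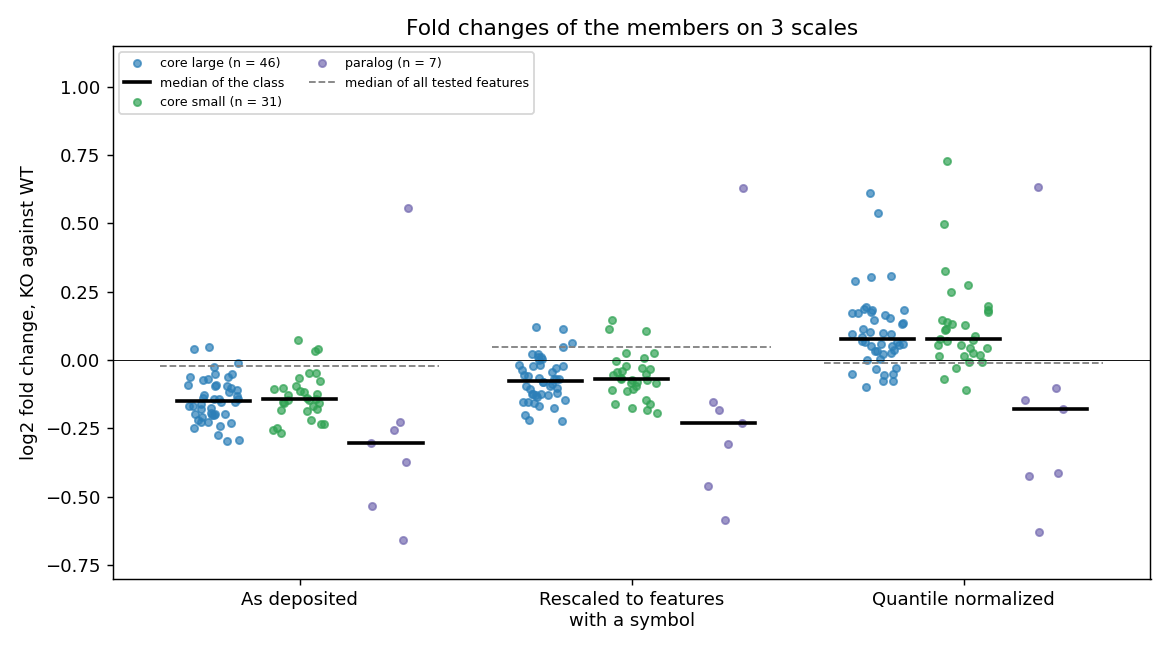
Log2 fold change (KO against WT) of each member as deposited, rescaled to features with a gene symbol, and after quantile normalization; points are genes, black bars class medians and dashed grey lines the median of all tested features. The core medians lie below the dashed line on the first 2 scales (-0.15 and -0.14 as deposited for the large and small subunit) and above it after quantile normalization (0.077 and 0.079), while 6 of the 7 paralogs are below 0 and Rpl10l is above 0 on all 3.

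The members that passed the test were 3 large subunit paralogs, which kept their direction on each scale. Rpl39l (chr16:10170226-10174911, plus strand) encodes a relative of Rpl39, a small protein of the exit tunnel, and is best known from testis. Its level was 73.7 and 83.0 FPKM in WT against 47.4 and 51.8 FPKM in KO. The groups did not overlap, at 78.4 ± 6.58 against 49.6 ± 3.08 FPKM (SD, n = 2 each). The log2 fold change was -0.66 ± 0.093 (SE), a ratio of 0.634, with an adjusted p of 0.0121 by limma, and -0.63 with an adjusted p of 0.0143 by limma after quantile normalization.

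Rpl22l1 (chr3:28805436-28807424, plus strand) encodes a close relative of Rpl22. Its level was 824 and 912 FPKM in WT and 576 and 621 FPKM in KO, and each KO library was below both WT libraries. The log2 fold change was -0.54 ± 0.090 (SE), a ratio of 0.69, with an adjusted p of 0.0196 by limma, and -0.41 with an adjusted p of 0.0311 by limma after quantile normalization. Over the alternative settings that keep all 4 libraries the adjusted p by limma ranged from 0.00378 to 0.0589, and the call was lost without a filter on low values (adjusted p by limma of 0.0505) and without a trend in the variance (0.0589).

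Rpl10l (chr12:66283379-66284401, minus strand) is an autosomal relative of the X-linked Rpl10, known for its expression in male germ cells. It rose, from 97.5 and 104.8 FPKM in WT to 148.4 and 149.4 FPKM in KO, with the groups apart. The log2 fold change was 0.56 ± 0.074 (SE), a ratio of 1.47, with an adjusted p of 0.0104 by limma, and 0.63 with an adjusted p of 0.00737 by limma after quantile normalization. Its feature is 2.52 times as long as the annotated gene. Over the settings with all 4 libraries the adjusted p by limma ranged from 0.00218 to 0.0415 for Rpl10l and from 0.00183 to 0.0438 for Rpl39l.

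The features within 5 Mb on either side of these genes had medians near 0. The median log2 fold change was -0.050 over the 48 tested neighbours of Rpl39l, of which 1 passed as lower. It was 0.0047 over the 24 neighbours of Rpl22l1, with 1 higher and 2 lower, and -0.074 over the 36 neighbours of Rpl10l, none of which passed in limma. At an unadjusted p under 0.05 limma counted 13, 13 and 8 of these neighbours (27.1%, 54.2% and 22.2%), against 29.6% of all features.

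Each of the other 4 paralogs in the rule had both KO libraries below both WT libraries, and none passed the test. Of the 7 paralogs, 6 (85.7%) lay lower in this way as deposited, against 31.7% of all tested features. After quantile normalization it was again 6, against 30.1%. Rps27l, a relative of Rps27 known as a target of p53, was listed at 1086 and 1199 FPKM in WT and 939.9 and 911 FPKM in KO, a log2 fold change of -0.30 (adjusted p of 0.0796 by limma). Rpl7l1, a relative of Rpl7, was at 144 and 145 against 124 and 119 FPKM, a log2 fold change of -0.25 (adjusted p of 0.0723 by limma). Rpl3l, the striated muscle counterpart of Rpl3, was at 1.85 and 1.45 against 1.41 and 1.09 FPKM, and at such levels the replicates of a group lay nearly as far apart as the groups. Rps4l, annotated as a transcribed processed pseudogene related to Rps4x, was at 711.9 and 719 against 599 and 625 FPKM, but its feature is 421 times as long as the annotated gene and its level is uncertain.

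A ratio of a paralog to its parent gene within a library does not depend on a scale factor of that library. Rpl10l stood at 3.90% and 4.36% of Rpl10 in WT and at 6.58% and 7.17% in KO, a difference in the log2 ratio of 0.74. Rpl22l1 exceeded Rpl22 in every library, at 295.5% and 337.4% in WT and 204.8% and 235.6% in KO, a difference of -0.52. The Rpl22 value is that of a feature merged with Chd5 and 7.89 times as long as the annotated gene, so that this ratio is uncertain. Rpl39l stood at 1.20% and 1.38% of Rpl39 in WT and at 0.812% and 1.09% in KO, a difference of -0.46. In these 3 pairs the groups did not overlap.

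The remaining pairs differed less between the groups. Rpl7l1 was 7.31% and 7.23% of Rpl7 in WT and 6.22% and 5.64% in KO, and Rps4l was 32.1% and 32.8% of Rps4x against 28.2% and 29.1%. Rpl36al, a second gene for the Rpl36a protein that the symbol rule leaves out, was 59.7% and 59.8% of Rpl36a in WT and 56.0% and 55.7% in KO. For Rpl3l (0.0932% and 0.0745% against 0.0767% and 0.0630%) and Rps27l (8.45% and 9.03% against 7.79% and 9.18%) the groups overlapped. An exact permutation test, two-sided, of 2 against 2 libraries cannot go below p = 0.33, which 6 of the 8 ratios reached.

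**Figure D3:**
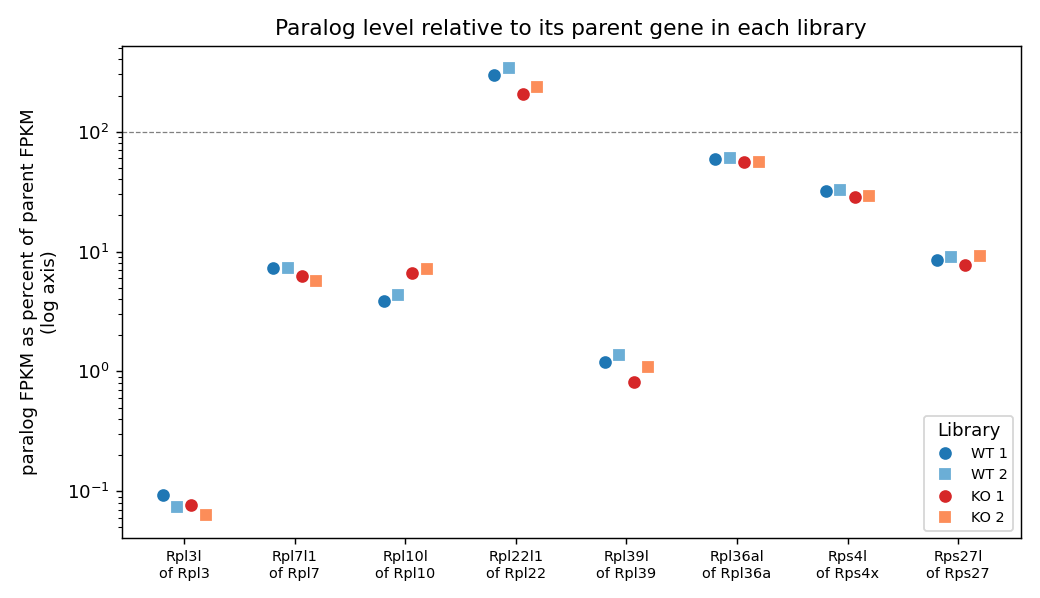
FPKM of each paralog as a percent of the FPKM of its parent gene in the same library (log axis), with blue for WT, red and orange for KO, and a dashed line at 100%. Rpl10l is the only pair with both KO libraries above both WT libraries, Rpl22l1 is the only paralog above its parent, and the libraries of Rpl3l and Rps27l overlap. The Rpl22 value is that of a feature merged with Chd5.

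Sequence likeness between paralog and parent bears on how far reads can be told apart. In the longest annotated coding sequences, Rpl39l shared 133 of 156 aligned bases with Rpl39 (85.3%), Rpl10l 547 of 645 with Rpl10 (84.8%) and Rpl22l1 259 of 369 with Rpl22 (70.2%). Rpl36al was the closest pair at 87.9% and Rpl7l1 the most distant at 62.6%. Rpl3l shared 74.4% with Rpl3, Rps27l 76.1% with Rps27, and the Rps4l transcript 80.1% with the coding sequence of Rps4x.

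The most abundant genes depended most on the scale. Rps27 had a log2 fold change of -0.26 as deposited and 0.73 after quantile normalization. Rpl41 went from -0.13 to 0.61, Rpl38 from -0.23 to 0.54 and Rplp1 from -0.28 to 0.29. The adjusted p by limma after quantile normalization was 0.0792 for Rps27 and 0.0868 for Rpl41, so that neither passed on either scale. Rps15a, the least abundant core gene, was at -0.095 as deposited and -0.031 after quantile normalization. Across the 77 core genes, Spearman's rho between mean FPKM and the log2 fold change as deposited was -0.252, as a description.

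**Figure D4:**
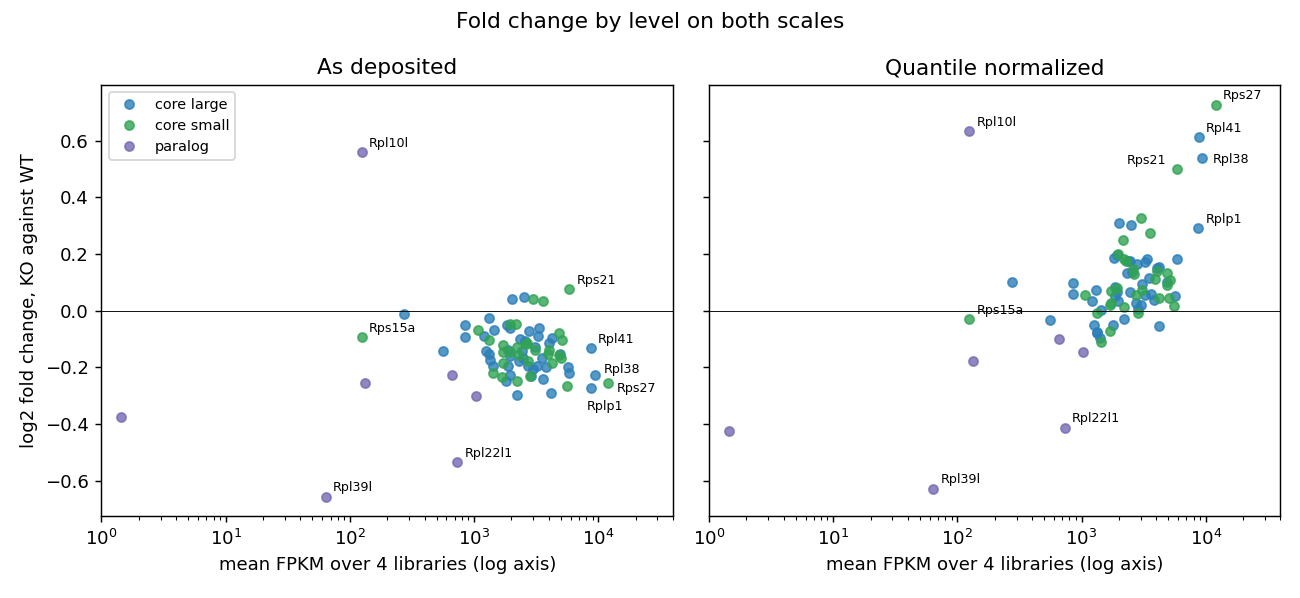
Log2 fold change (KO against WT) of each member against its mean FPKM (log axis), as deposited on the left and after quantile normalization on the right, coloured by class. On the left the core genes form a narrow band mostly below 0. On the right the band is slightly above 0 with the most abundant genes highest, Rps27 at 0.73, Rpl41 at 0.61 and Rpl38 at 0.54. Rpl39l, Rpl22l1 and Rpl10l keep their places.

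The stalk proteins, which recruit the GTPases of translation, had both KO libraries below both WT libraries as deposited. The same held for 75% of all members and for 31.7% of all tested features. Rplp1 was listed at 9429.8 and 9641 FPKM in WT and 8244 and 7532 FPKM in KO. Rplp0, the base of the stalk, was at 2177 and 2029.9 against 1875 and 1717 FPKM, and Rplp2 at 5024 and 5257 against 4851 and 4399.6 FPKM. The log2 fold changes were -0.28, -0.23 and -0.15 as deposited and 0.29, 0.033 and 0.10 after quantile normalization, and none passed in limma. On the latter scale both KO libraries of Rplp2 lay above both WT libraries, and the groups overlapped for Rplp0 and Rplp1.

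Rpl5 and Rpl11 carry the 5S rRNA and bind MDM2 when ribosome assembly is disturbed. Rpl11 was at 2806 and 3010.5 FPKM in WT and 2522 and 2553 FPKM in KO, with the groups apart, and Rpl5 at 807 and 926 against 784 and 887 FPKM, with the groups overlapping. The log2 fold changes were -0.20 and -0.051 as deposited, and 0.027 and 0.097 after quantile normalization. The Rpl5 feature is 10.3 times as long as the annotated gene, so that its level is uncertain.

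Among small subunit genes with a role of their own, Rps6, the substrate of S6 kinase, was at 1398 and 1677 FPKM in WT and 1226 and 1413 FPKM in KO, and the groups overlapped. Its log2 fold change was -0.22 as deposited and -0.11 after quantile normalization. Rps27a, which is made as a fusion with ubiquitin, was at 1739 and 1844 against 1612 and 1678 FPKM, and Rpsa, also known as the laminin receptor, at 1391 and 1357 against 1289 and 1266 FPKM. Both had the KO libraries below the WT libraries as deposited, with log2 fold changes of -0.12 and -0.11, and 0.069 and -0.0084 after quantile normalization. None of the 3 passed in limma. The Rps27a feature is 14.4 times as long as the annotated gene, so that its level is uncertain.

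Core genes at the upper end of the fold changes were Rps21, Rpl19, Rpl7, Rps28 and Rps29, the 5 core genes with a positive value as deposited. Rps21 was at 5260.3 and 6149 FPKM in WT and 5347 and 6705 FPKM in KO, where the libraries of 1 group differed more than the groups, and its log2 fold change of 0.074 turned negative when either WT replicate 1 (-0.038) or KO replicate 2 (-0.089) was left out. Rpl19 was at 2445 and 2489.5 against 2549 and 2549 FPKM, and Rps28 at 2973 and 2962 against 3057 and 3045 FPKM, in a feature 5.02 times as long as the annotated gene. Rpl19 and Rps28 were the only core genes with both KO libraries above both WT libraries as deposited, by log2 fold changes of 0.047 and 0.040. Neither passed in limma on this scale.

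At the lower end stood Rpl7a, in a feature merged with Surf2, at 2424 and 2423 against 2022 and 1923 FPKM (log2 fold change -0.30). Next was Rpl34, at 4297 and 4963 against 3939.7 and 3607 FPKM (-0.29). Both were named after their values were seen, as were Rps10 and Rpl27. Rps26, whose level was 5703 and 6467 against 5199 and 4901 FPKM, and Rps10, with 2373 and 2422 against 2075 and 1965 FPKM, had the lowest values among core genes of the small subunit beside Rps27 (-0.27 and -0.25). After quantile normalization these 4 genes were at -0.030, -0.056, 0.015 and 0.013. On the log2 scale the largest difference between replicates was in Rpl27, at 2118 and 2761 FPKM in WT and 2674 and 1900.4 FPKM in KO. Its log2 differences of replicate 2 from replicate 1 were 0.38 in WT and -0.49 in KO.

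The subunits had like medians. The median log2 fold change was -0.15 over the 46 core large subunit genes and -0.14 over the 31 core small subunit genes as deposited, and 0.077 and 0.079 after quantile normalization. The median log2 level of all large minus all small subunit members was -0.12 and -0.21 in WT and -0.17 and -0.23 in KO. The groups overlapped, with a difference of -0.036 between them (exact permutation test, two-sided, p = 0.667, where the smallest p is 0.33). Over core members alone the difference had the other sign, 0.0092 (exact permutation p = 1.0).

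The share of summed FPKM held by the members reversed with the features counted. Over all features it was 24.7% and 21.5% in WT and 26.4% and 26.1% in KO, and KO was higher by 3.09 percentage points. Over features with a gene symbol it was 33.8% and 34.4% in WT and 32.5% and 31.8% in KO, and KO was lower, by a difference of -1.89 percentage points. In both cases the groups did not overlap, and the exact permutation test, two-sided, gave its smallest p of 0.33. A share of summed FPKM is per length and is not a share of reads.

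The core genes were also split by other properties. Annotated snoRNA genes lie inside 30 core genes, on the same strand, 58 in all, and their median log2 fold change was -0.15 against -0.13 for the 47 core genes without one. The 4 X-linked core genes, Rpl10, Rpl36a, Rpl39 and Rps4x, had a median of -0.19 and the 73 autosomal ones of -0.14. As deposited, the 24 core genes whose feature is more than 1.5 times as long as the annotated gene had a median of -0.13 and the other 53 of -0.15, while the 7 core genes merged with another symbol were at -0.16. After quantile normalization these medians were 0.060 and 0.11 with and without a snoRNA, 0.092 and 0.079 for X-linked and autosomal genes, and 0.096 and 0.065 for long and other features, so that the order of the X-linked and autosomal genes turned.

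E-boxes were looked for because BMAL1 binds them. The letters CACGTG, which read the same on both strands, were found in the promoter window (250 bases before to 50 after the start) of 6 of the 63 members with one (9.5%), against 8.1% of all genes. The windows lie at chr11:98026679-98026708 (plus), chr7:24884781-24884810 (plus), chr3:130730536-130730565 (minus), chr7:45128928-45128957 (minus), chr9:120571337-120571366 (plus) and chr11:97782425-97782454 (minus), in the order printed, with the E-box in capitals.
Rpl19: tacccagaggacCACGTGaccaaacgccct
Rps19: tggagccgcggcCACGTGcgagcggcaggc
Rpl34: cacctaacttctCACGTGacgttcctaccg
Rpl13a: cgctccgaaaccCACGTGacatcccgcccc
Rpl14: ccaagctcactgCACGTGtctgaggagaag
Rpl23: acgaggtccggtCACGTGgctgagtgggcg
The 6 genes include Rpl19, at the upper end of the fold changes, and Rpl34, at the lower end. Their median log2 fold change was -0.13, against -0.15 for the 57 members without the letters, and 0.050 against 0.058 after quantile normalization. These matches are a description and not binding sites.

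Other motifs were searched on both strands of the same windows. CCGGAAG, the letters bound by ETS factors, was in 26 of 63 member promoters (41.3%), against 9.9% of all genes, with a median log2 fold change of -0.16 in those holding it and -0.14 in the others. AAGATGG, the core of the YY1 motif, was in 10 (15.9%, against 7.3%), with medians of -0.18 and -0.14, and TATAAA was in 7 (11.1%, against 15.7%), with medians of -0.20 and -0.15. Members with a C-plus-pyrimidine run at the start had a median of -0.17 and those without of -0.14.

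Genes that work beside the ribosome were counted in the same way. Of 16 translation factor genes, 1 (6.25%) passed as lower and none as higher, against 5.60% and 6.85% of all features, with a median of -0.11 as deposited and 0.0034 after quantile normalization. The gene was Eif3l, a subunit of initiation factor 3, at 293 and 293 FPKM in WT and 228 and 222 FPKM in KO, with a log2 fold change of -0.38 (adjusted p of 0.0240 by limma, and 0.0609 after quantile normalization, where it no longer passed). Eef1a1, the elongation factor that brings tRNA to the ribosome, was at 5556 and 5741 against 5458 and 5526 FPKM.

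Of 27 ribosome assembly genes found of 28 listed, 1 (3.70%) passed as higher and 3 (11.1%) as lower, against 6.85% and 5.60% of all features, with a median of -0.13 as deposited and -0.056 after quantile normalization. Those lower were Rcl1, needed for small subunit rRNA processing (log2 fold change -0.52, adjusted p of 0.0143 by limma), Rrp9, a protein of the U3 snoRNP (-0.41, 0.0396), and Ltv1, an assembly factor of the small subunit (-0.32, 0.0453). After quantile normalization 1 passed as lower, Rcl1 (3.70%, against 5.37% of all features). Polr1a, which encodes the largest subunit of RNA polymerase I, was at 15.6 and 14.8 FPKM in WT and 34.3 and 33.0 FPKM in KO, a log2 fold change of 1.14 with an adjusted p of 0.00242 by limma. Polr1a lies on chromosome 6 among features that were also higher, with a median log2 fold change of 0.83 over its 45 tested neighbours within 5 Mb, of which 28 passed as higher. Polr1b and Polr1c, 2 other subunits of the polymerase, had log2 fold changes of -0.069 and -0.13 and did not pass.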

How the data were processed

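RNA was measured in 4 libraries, 2 WT and 2 Bmal1 KO, grouped by their titles. According to the submitters' notes and the methods, the authors aligned reads to GRCm38 (mm10) with TopHat2 2.1.1 and Bowtie2 2.3.0 at default settings and deposited FPKM values per gene from Cufflinks 2.2.1. Read totals were not given, so depth and counting error are unknown, and read shares between ribosomal protein genes and their pseudogenes could move single values. Values were taken as log2(FPKM + 0.1) where the mean over the libraries reached 0.5 FPKM, so that fold changes of low genes are understated. KO and WT were compared by limma 3.58.1 (R 4.3.3) with a trend in the variance, two-sided, with Benjamini-Hochberg adjustment over 12990 features and a threshold of 0.05. Values per library were compared by exact permutation (scipy 1.17.1). Gene spans, snoRNA genes and coding sequences are from GENCODE M21, in which all 84 members matched by symbol, and promoters are from RefSeq (GRCm38.p6). Genes named are the members that passed, the 3 largest and 3 smallest fold changes of each subunit, the 3 most abundant members, the paralog pairs and members with a role of their own. The members and lists were chosen with earlier results of these data known. Alternatives covered the pseudocount, filter, scale, variance trend, replicate block, merging by symbol and leaving out each library. The ribosomal protein genes that the symbol rule leaves out are not reported here as a list.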

Additional observations from a re-analysis of the deposited data

How the results depend on the processing

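Rpl10l passed as higher and Rpl39l as lower under every alternative run, and Rpl22l1 under all but 2. The number of members that passed as lower went from 2 to 1 without a filter on low values and to 1 without a trend in the variance. With quantile normalization over features with a symbol, chosen after seeing the data, 3 members passed as higher (3.57%, against 8.77% of all features) and 5 as lower (5.95%, against 7.46%), and the median of the members was -0.053. Core genes among them were Rpl19 (adjusted p of 0.0352 by limma) and Rps28 (0.0414) as higher. Those lower were Rps13 (0.0327), Rpl24 (0.0445) and Rps26 (0.0493). The median was 0.070 after quantile normalization over all features and -0.077 when rescaled to features with a symbol. Leaving out 1 library at a time, which leaves 1 group with a lone library assumed to vary like the other group, the median ranged from -0.19 to -0.13, the count passing as higher stayed at 1 and the count passing as lower at 2, and the KO minus WT share of summed FPKM ranged from 1.49 to 4.69 percentage points, the lowest without WT replicate 2. That share difference was -1.89 over features with a symbol. The large minus small subunit difference ranged from -0.081 to 0.0094, positive without WT replicate 1, and the Rps27l/Rps27 log2 ratio from -0.17 to 0.073, being 0.0015 without WT replicate 2 and 0.073 without KO replicate 1. The other ratios kept their sign, from 0.65 to 0.82 for Rpl10l/Rpl10, -0.62 to -0.42 for Rpl22l1/Rpl22, -0.67 to -0.25 for Rpl39l/Rpl39, -0.39 to -0.083 for Rpl3l/Rpl3, -0.37 to -0.22 for Rpl7l1/Rpl7, -0.20 to -0.16 for Rps4l/Rps4x and -0.10 to -0.094 for Rpl36al/Rpl36a. The cause of these shifts was not tested.

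After quantile normalization 65 of the 84 members had a positive fold change, 59 of which were negative as deposited. Among the genes named by the fixed rule these were Rpl10 (0.13), Rpl11 (0.027), Rpl22 (0.10), Rpl3 (0.083), Rpl36a (0.0051), Rpl38 (0.54), Rpl39 (0.051), Rpl41 (0.61), Rpl5 (0.097), Rplp0 (0.033), Rplp1 (0.29), Rplp2 (0.10), Rps26 (0.015), Rps27 (0.73), Rps27a (0.069) and Rps4x (0.25), none of which passed in limma, and the median of the translation factors turned to 0.0034. Rescaled to features with a symbol, 11 members turned positive, among the named genes Rpl22 (0.061), Rpl5 (0.022) and Rps4x (0.026), and with quantile normalization over those features 18 turned, among them Rpl22 (0.093), Rpl41 (0.072), Rpl5 (0.013) and Rps4x (0.10). Leaving out 1 library at a time, between 2 and 7 members changed sign, and among the named genes the fold change crossed 0 for Rpl22 (from -0.058 to 0.034), Rpl5 (from -0.15 to 0.048), Rps21 (from -0.089 to 0.24) and Rps29 (from -0.021 to 0.089).

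Equal replicate numbers mark no shared batch in the labels. With the replicate number as a block, 1 member passed as higher, Rpl10l, and 7 (8.33%) as lower, against 13.9% and 17.3% of all features (1807 and 2245). Those lower by limma with the block were Rpl39l, Rpl22l1, Rpl7l1 (adjusted p of 0.0123), Rps4l (0.0248), Rps27l (0.0316) and the core genes Rpl7a (0.0353) and Rps6 (0.0491). The difference of replicate 2 from replicate 1 in WT and in KO had a Pearson correlation of 0.0712 and a Spearman correlation of 0.387 over tested features, and of 0.387 and 0.505 over the 84 members, which share libraries. Without read counts, no limit from depth can be given, and 2 libraries a group limit the precision of every value.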
